A study of Mus musculus with 2 samples.

Results

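Ubiquitin-specific proteases (USPs), the largest family of deubiquitinating enzymes, were followed in mouse cerebral cortex on 2 Affymetrix expression arrays. Members were the genes whose single symbol in the platform annotation was Usp followed by a digit, leaving out Usp9y. The rule found 50 genes on 127 probe sets, out of 18193 genes on 34945 single-symbol probe sets. A further 4 probe sets that name a Usp gene together with another gene were left out. The rule also took in Usp6nl, a GTPase-activating protein of endocytic Rab proteins that is not a protease, and Usp46os2, named as an opposite-strand RNA of Usp46. One array received cortex RNA titled as Gnmt knockout and the other cortex RNA titled as wild type, each mixed in equal parts from 3 male mice of 129/B6 background aged 4 weeks. Gnmt encodes glycine N-methyltransferase, which uses S-adenosylmethionine to methylate glycine. The sources used here do not give the allele. The title and the genotype entry of the knockout sample disagree, since the entry says wild-type, so its RNA is called the knockout-labelled pool.

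Ubiquitin is attached to proteins by a cascade of activating, conjugating and ligating enzymes, and deubiquitinases take it off again. USPs are cysteine proteases that cut ubiquitin from substrates or trim ubiquitin chains. In doing so they spare proteins from the proteasome, return receptors from endosomes to the cell surface, and remove ubiquitin from histones. In neurons, Usp14 at the proteasome and Usp46 at glutamate receptors are the members best known for synaptic roles, and Usp9x for brain development.

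With 1 array per pool nothing could be tested, and precision is limited by the number of arrays. A signal is given in array units, and a ratio is always knockout-labelled over wild-type on a log2 scale, centred on the median of all measured probe sets. Probe sets were taken as measured from a floor of 64.2 units on both arrays upwards. A gene was represented by its brightest probe set. The spread between probe sets of the same gene was the only error at hand: its SD was 0.58 for the log2 ratio over 5375 genes and 0.59 over 31 Usp genes. This error covers neither the spread between mice nor that between pools.

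The arrays differed in ways that bear on every ratio. Their median signals were 124.9 units in the knockout-labelled pool and 92.0 units in the wild-type pool. The Gnmt probe set was below the floor on both arrays, at 21.5 units in the knockout-labelled pool and 10 in the wild-type pool, and could not check the labels. Xist, the noncoding RNA of the inactive X chromosome, had 2560 units in the knockout-labelled pool and 49.6 units in the wild-type pool by its brightest probe set, although both pools are labelled male. Y-linked genes were above the floor in both pools by brightest probe sets. Eif2s3y had 989.0 units in the knockout-labelled pool and 879.8 in the wild-type pool. Uty had 161.4 units in the knockout-labelled pool and 186.7 in the wild-type pool, and Kdm5d had 198.9 in the knockout-labelled pool and 355.4 in the wild-type pool. Malat1, a long nuclear RNA, was higher in the knockout-labelled pool by all 7 probe sets. Its brightest had 2529 units in the knockout-labelled pool and 1370 in the wild-type pool, and another had 2262 units in the knockout-labelled pool and 129.6 in the wild-type pool. The 3′ to 5′ signal ratio of the actin control probe sets was 3.76 in the knockout-labelled pool and 3.71 in the wild-type pool. The actin 3′ signal itself was 25267 units in the knockout-labelled pool and 9207 in the wild-type pool. For Gapdh the 3′ signal was 20734 units in the knockout-labelled pool and 24145 in the wild-type pool. Cortical neuron markers were present: 5 of 5 excitatory and 6 of 6 interneuron markers named on the arrays were measured. In the knockout-labelled pool the excitatory marker Neurod6 was 3.04-fold lower and Tbr1 2.08-fold higher. The other 3 and all 6 interneuron markers lay within 1.5-fold by brightest probe sets. Among 7 microglia markers, 5 were lower by 1.5-fold or more in the knockout-labelled pool, against 18.2% of all genes. Of the others, 1 was higher, against 12.5% of all genes. The 7 together summed to 10207 units in the knockout-labelled pool and 11763 in the wild-type pool. Csf1r alone gave most of both sums, with 7830 units in the knockout-labelled pool and 6390 in the wild-type pool. The lowest microglia signals were 224.7 units for Fcrls in the knockout-labelled pool and 87.2 for Cx3cr1 in the wild-type pool, so none was at 0. Of 7 astrocyte markers, 4 were lower and 0 higher at the same threshold by brightest probe sets. Every measured probe set of Gfap and S100b was lower by 1.5-fold or more. Other probe sets reached ratios of 0.34 for Slc1a3, 1.60 for Aqp4, 1.66 for Gja1 and 3.88 for Slc1a2. By brightest probe sets the 7 markers summed to 66051 units in the knockout-labelled pool and 70671 in the wild-type pool. Slc1a2 gave 26501.5 units in the knockout-labelled pool and 23617 in the wild-type pool. Aldoc gave 21409 units in the knockout-labelled pool and 22245 in the wild-type pool. Both together made up most of each astrocyte sum. The 6 anterior pituitary markers summed to 724.7 units in the knockout-labelled pool and 31335 units in the wild-type pool, where Gh alone gave 23223 units. In the knockout-labelled pool 3 of these 6, Prl, Cga and Lhb, were below the floor. The part of cell composition, or of adjoining tissue, in the Usp ratios was not tested. Fewer cells of a type and less RNA per cell cannot be told apart in such pools.

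Most of the family was present in the cortex and most measured members lay within 1.5-fold between the pools. Of 50 genes, 44 were measured, or 88.0% against 67.3% of all genes. Measured Usp genes had a mean of 2.20 measured probe sets, against 1.71 over all genes. The part of this in the share measured was not tested. By brightest probe sets 31 of the 44 lay within 1.5-fold. In the knockout-labelled pool 7 genes, or 15.9%, were higher by 1.5-fold or more, against 12.5% of all genes, and 6, or 13.6%, were lower, against 18.2%. The median ratio was 0.04 over Usp genes and -0.06 over all genes. With the floor at the 25th percentile of signals it was -0.01 over Usp genes and -0.09 over all genes, and with no floor -0.067 over Usp genes and -0.14 over all genes. With quantile normalization 8 Usp genes were higher, against 14.4% of all genes, and 4 lower, against 17.9%. At 2-fold 1 member was higher and 2 were lower, against 3.47% and 6.75% of all genes. The shares past 1.5-fold and past 2-fold lie near the background, and nothing particular to the family is read from them.

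**Figure D1:**
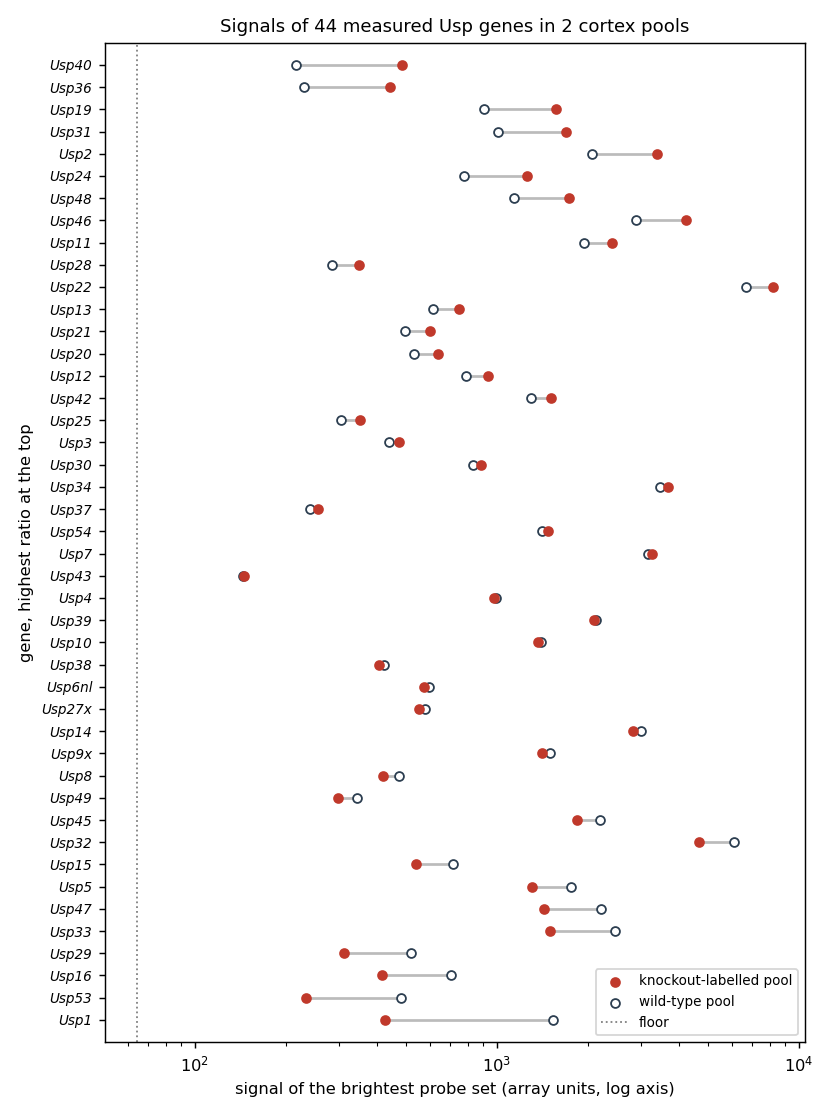
Signals of the brightest probe set of the 44 measured Usp genes (array units, log axis), with the knockout-labelled pool as filled points and the wild-type pool as open points; genes run from the highest ratio, Usp40, to the lowest, Usp1. Pairs of points lie close together over most of the list, and Usp1 has the widest gap, at 425.5 units in the knockout-labelled pool and 1529 units in the wild-type pool.

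The brightest members were Usp22, Usp32, Usp34, Usp46, Usp7 and Usp14. Signals of different probe sets are not comparable as transcript amounts, so this order describes the array. Usp22, the histone H2B deubiquitinase of the SAGA coactivator complex, had 8186 units in the knockout-labelled pool and 6684 units in the wild-type pool. Usp34, a very large protease of the Wnt pathway that acts on axin, had 3687 units in the knockout-labelled pool and 3472 in the wild-type pool. Both were within 1.5-fold, as were the other 4. The dimmest measured member was Usp43, at 145.9 units in the knockout-labelled pool and 144.2 in the wild-type pool. The 6 genes not measured were below the floor on both arrays. They were Usp17la, Usp18, Usp26, Usp44, Usp46os2 and Usp50, with no signal above 56.9 units. Usp18, the protease that removes the interferon-induced modifier ISG15, had 28.3 units in the knockout-labelled pool and 31.3 in the wild-type pool. Nearest below the floor by mean signal was Usp17la, with 34.5 units in the knockout-labelled pool and 28.6 in the wild-type pool.

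Usp40 and Usp36 had the highest ratios, and every measured probe set of both was higher by 1.5-fold or more. Usp40, a little-studied member of the family, had 486.1 units in the knockout-labelled pool and 215.5 units in the wild-type pool by its brightest probe set. It was 2.24-fold higher, and its 3 measured probe sets had ratios between 1.07 and 1.28. The remaining Usp40 probe set had 247.8 units in the knockout-labelled pool and 49.7 units in the wild-type pool, at least 3.83-fold higher. Usp36, a nucleolar protease that acts on ribosome synthesis, had 442.5 units in the knockout-labelled pool and 229.2 in the wild-type pool and was 1.91-fold higher. Its second probe set had a ratio of 0.82. Of the 31 Usp genes with several measured probe sets, these 2 had all of them higher by this much, against 3.83% of 5375 such genes. Both genes kept a ratio past 1.5-fold under all 9 alternatives tried. Those that took other probe sets could not bring it inside, since every measured probe set was already past 1.5-fold. Changes of floor or centring shifted the ratios of all these genes alike.

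The promoter windows of these 2 genes and of Usp29, which was lower, are printed from RefSeq (GRCm38.p6) to show the start regions of members that moved in opposite directions. Each window runs 5′ to 3′ on the gene's strand, from 250 bases before the start to 50 after it. Capitals mark CG dinucleotides. The windows are chr1:88008502-88008801 on the minus strand for Usp40, chr11:118290195-118290494 on the minus strand for Usp36 and chr7:6730333-6730632 on the plus strand for Usp29.
Usp40: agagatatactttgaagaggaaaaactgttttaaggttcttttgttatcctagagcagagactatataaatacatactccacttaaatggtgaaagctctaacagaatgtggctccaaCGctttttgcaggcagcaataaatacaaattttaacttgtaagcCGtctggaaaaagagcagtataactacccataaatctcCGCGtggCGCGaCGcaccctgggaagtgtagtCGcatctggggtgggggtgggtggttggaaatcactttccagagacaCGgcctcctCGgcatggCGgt
Usp36: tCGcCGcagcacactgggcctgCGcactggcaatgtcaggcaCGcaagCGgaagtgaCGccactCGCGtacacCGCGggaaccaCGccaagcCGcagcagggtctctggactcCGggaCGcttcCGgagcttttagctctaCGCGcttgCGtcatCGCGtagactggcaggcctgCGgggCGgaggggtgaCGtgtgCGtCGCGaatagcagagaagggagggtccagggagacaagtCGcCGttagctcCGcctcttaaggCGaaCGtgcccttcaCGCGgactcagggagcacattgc
Usp29: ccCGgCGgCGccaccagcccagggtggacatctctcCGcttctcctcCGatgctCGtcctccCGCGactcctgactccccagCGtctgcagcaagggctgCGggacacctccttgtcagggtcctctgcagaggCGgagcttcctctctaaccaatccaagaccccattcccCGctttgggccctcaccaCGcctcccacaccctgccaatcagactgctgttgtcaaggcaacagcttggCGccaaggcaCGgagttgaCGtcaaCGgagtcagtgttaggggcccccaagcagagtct
These windows hold 11, 33 and 17 CG dinucleotides. The median was 31 CG dinucleotides over 35 windows of 34 measured Usp genes, and 20 over 12848 windows of 9924 measured genes. Of the 2 genes with the highest ratios, Usp40 thus lay well below the family median and Usp36 just above it. The table gave no window for the other 10 measured members. Binding motifs were searched on both strands and no matches overlapped in the printed windows. The E-box CACGTG was in 14.3% of Usp windows and 9.63% of all, the cyclic AMP response element TGACGTCA in 2.86% and 2.93%, and the CCAAT box in 22.9% and 37.1%. The D-box TTATGTAA and the E2F site TTTCGCGC were in 0 Usp windows and in 0.545% and 0.576% of all windows. The printed window of Usp29 holds a cyclic AMP response element from its base 258 to its base 265, and 2 CCAAT boxes. The windows of Usp40 and Usp36 hold no match to any motif searched.

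Among the proteases of the proteasome and of free ubiquitin chains, none of 3 was 1.5-fold apart. Usp14, which trims chains at the proteasome and is mutated in the ataxia mouse, had 2829 units in the knockout-labelled pool and 3002 units in the wild-type pool. Its 4 probe sets ran from -0.10 for the brightest to 1.03 for the dimmest. Usp5, which takes apart unanchored chains, had 1307 units in the knockout-labelled pool and 1755 in the wild-type pool, a ratio of -0.44 by its only probe set. Its relative Usp13 had 0.27, so the ratios of these relatives differed in sign and both lay within 1.5-fold.

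Of the 6 members of endosomes, receptor recycling and autophagy, Usp6nl included, 1 was lower, against 18.2% of all genes, and none higher, against 12.5%. Usp33, which returns receptors to the cell surface and acts on the axon guidance receptor Robo1, had 1498 units in the knockout-labelled pool and 2465 units in the wild-type pool. It was 1.66-fold lower by its only measured probe set, and its ratio was -0.56, inside 1.5-fold, with quantile normalization. Its close relative Usp20 had 637.3 units in the knockout-labelled pool and 531.4 in the wild-type pool, a ratio of 0.25. Usp8, which controls sorting of ubiquitinated receptors at endosomes with its partner Stam, had 419.7 units in the knockout-labelled pool and 473.1 in the wild-type pool by the brightest probe set. Another Usp8 probe set had 224.4 units in the knockout-labelled pool and 3.7 units in the wild-type pool, at least 3.47-fold higher. The probe sets of Usp8 therefore gave different pictures of the same gene. Usp10, the partner of the stress granule protein G3bp1, had a ratio of -0.04. Usp32 had 4654 units in the knockout-labelled pool and 6069 in the wild-type pool by its brightest probe set, a ratio of -0.39. Its second gave 563.3 units in the knockout-labelled pool and 241.9 in the wild-type pool, a ratio of 1.21.

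Usp1, Usp12 and Usp46 are activated by the same partner, Wdr48, and had 3 different patterns. Usp1, which removes ubiquitin from the DNA repair proteins Fancd2 and Pcna, had 425.5 units in the knockout-labelled pool and 1529 units in the wild-type pool. It was 3.62-fold lower, the lowest ratio of the family. Another probe set had 65.7 units in the knockout-labelled pool and 119.8 in the wild-type pool, a ratio of -0.88, and the remaining one had 42.7 units in the knockout-labelled pool and 223.6 in the wild-type pool, at least 3.51-fold lower. All 3 Usp1 probe sets thus lay lower in the knockout-labelled pool, and Usp1 stayed past 1.5-fold under all 9 alternatives. Those that took other probe sets could not bring it inside, since both measured Usp1 probe sets were past 1.5-fold. Wdr48 itself had 731.7 units in the knockout-labelled pool and 1366 in the wild-type pool and was 1.88-fold lower by its brightest probe set, with its highest at -0.13. Usp12 had 931.9 units in the knockout-labelled pool and 791.6 in the wild-type pool, a ratio of 0.22. Usp46, a close paralog of Usp12 that acts on glutamate receptors and on immobility behaviour in mice, had 4223 units in the knockout-labelled pool and 2882 units in the wild-type pool by its brightest probe set. That is a ratio of 0.54, just inside 1.5-fold, and its other probe set had 1430 units in the knockout-labelled pool and 2005 in the wild-type pool, a ratio of -0.50. No direction can be given for Usp46 from these probe sets.

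Among the chromatin and histone members, 1 of 9 measured genes was higher, against 12.5% of all genes, and 1 lower, against 18.2%. The higher one was Usp36. Usp16, a histone H2A deubiquitinase, had 417.4 units in the knockout-labelled pool and 702.0 units in the wild-type pool and was 1.70-fold lower. Its other probe set had a ratio of -0.20. Usp7, which deubiquitinates Mdm2 and p53, had 3262 units in the knockout-labelled pool and 3169 in the wild-type pool by its brightest probe set. Of its 6 measured probe sets 5 lay between 0.03 and 0.51. The other, the fourth by brightness, had 2787 units in the knockout-labelled pool and 382.6 units in the wild-type pool, a 7.22-fold difference. A dim probe set had 110.5 units in the knockout-labelled pool and 45.8 in the wild-type pool, at least 1.71-fold higher. These last probe sets of Usp7 lay apart from the other 5. Usp3, another histone deubiquitinase, had 3 measured probe sets between 0.09 and 0.70. The X-linked Usp27x, which can stand in for Usp22, had ratios of -0.07 and -0.10. Usp21, Usp42 and Usp49, which act on histones, had 0.26, 0.21 and -0.23, all within 1.5-fold.

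The related proteases Usp4, Usp11 and Usp15 and the spliceosome protein Usp39 were all within 1.5-fold by brightest probe sets. Usp15, known for TGF-β signalling, had the widest range of ratios among the probe sets measured on both arrays. Its brightest gave 538.0 units in the knockout-labelled pool and 713.7 in the wild-type pool, a ratio of -0.42. The others ran from -1.92, at 143.2 units in the knockout-labelled pool and 535.9 units in the wild-type pool, to 1.61, at 365.1 units in the knockout-labelled pool and 118.8 in the wild-type pool. No direction can be given for Usp15. Usp4 had -0.04 by its brightest probe set and 1.16 by the other. The X-linked Usp11 had 2396 units in the knockout-labelled pool and 1935 in the wild-type pool, a ratio of 0.30. Usp39, which has lost its protease activity, had -0.04 and -0.56.

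Of 6 measured members linked to DNA damage and the cell cycle, 2 were lower, against 18.2% of all genes, and 1 higher, against 12.5%. Usp47, which acts on DNA polymerase β in base excision repair, had 1431 units in the knockout-labelled pool and 2213 units in the wild-type pool and was 1.56-fold lower. A second probe set had 589.3 units in the knockout-labelled pool and 1483 in the wild-type pool, 2.54-fold lower, while the remaining one had 289.8 units in the knockout-labelled pool and 28.3 units in the wild-type pool, at least 4.48-fold higher. The dim probe set of Usp47 thus went against the bright ones. Its brightest probe set was inside 1.5-fold with quantile normalization, at -0.47, and with loess, at -0.57. Usp29, an imprinted gene expressed from the paternal copy next to Peg3, had 311.7 units in the knockout-labelled pool and 521.1 in the wild-type pool and was 1.69-fold lower by its only measured probe set. Usp48 had 1729 units in the knockout-labelled pool and 1136 in the wild-type pool and was 1.51-fold higher, just past the threshold, with its second probe set at -0.14. Usp28, Usp37 and Usp45 were within 1.5-fold.

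Usp19, Usp2 and Usp24 were higher in the remaining groups of known function, against 12.5% of all genes. Usp19 was 1 of 4 measured members of mitochondria and endoplasmic reticulum, and Usp24 was 1 of 3 large proteases. Usp2 was the only measured member of its group. None in these groups was lower, against 18.2% of all genes. Usp19, a protease anchored in the endoplasmic reticulum, had 1574 units in the knockout-labelled pool and 906.5 units in the wild-type pool and was 1.72-fold higher. Its second probe set had 1098 units in the knockout-labelled pool and 1082 in the wild-type pool, a ratio of 0.01. Its companions Usp25, Usp30 (the mitochondrial protease that opposes parkin) and Usp38 had ratios of 0.20, 0.08 and -0.07. Usp2, whose transcript follows the circadian clock in many mouse tissues, had 3396 units in the knockout-labelled pool and 2061 units in the wild-type pool and was 1.63-fold higher. Its other probe set had 2503 units in the knockout-labelled pool and 1883 in the wild-type pool, a ratio of 0.40, so both lay on the higher side. The clock genes Per1, Cry1 and Arntl, on the list of USP substrates, had ratios of 0.48, 0.38 and -0.28 by brightest probe sets. All lay within 1.5-fold, and the other measured Arntl probe set had 0.54, so its sign depended on the probe set. Usp24 had 1259 units in the knockout-labelled pool and 779.8 in the wild-type pool and was 1.60-fold higher, with its other measured probe sets at 0.39 and 0.17. Usp9x, a large X-linked protease needed in brain development, had 1411 units in the knockout-labelled pool and 1498 units in the wild-type pool. Its 6 measured probe sets ran from -0.84 to 0.55, with 2 above 0.

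Of 5 measured members with no assigned group, Usp40 included, 2 were higher, against 12.5% of all genes, and 1 lower, against 18.2%. Usp31 had 1692 units in the knockout-labelled pool and 1006 units in the wild-type pool and was 1.67-fold higher, with its other measured probe sets at 0.21 and -0.21. Usp53, a tight junction protein needed for hearing in mice, had 233.3 units in the knockout-labelled pool and 482.2 in the wild-type pool and was 2.08-fold lower by its brightest probe set. Its second probe set had 333.2 units in the knockout-labelled pool and 90.9 units in the wild-type pool, 3.64-fold higher, and the third was at least 3.08-fold higher. The direction of Usp53 depended on the probe set. Usp54 and Usp43 had ratios of 0.05 and 0.01.

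**Figure D2:**
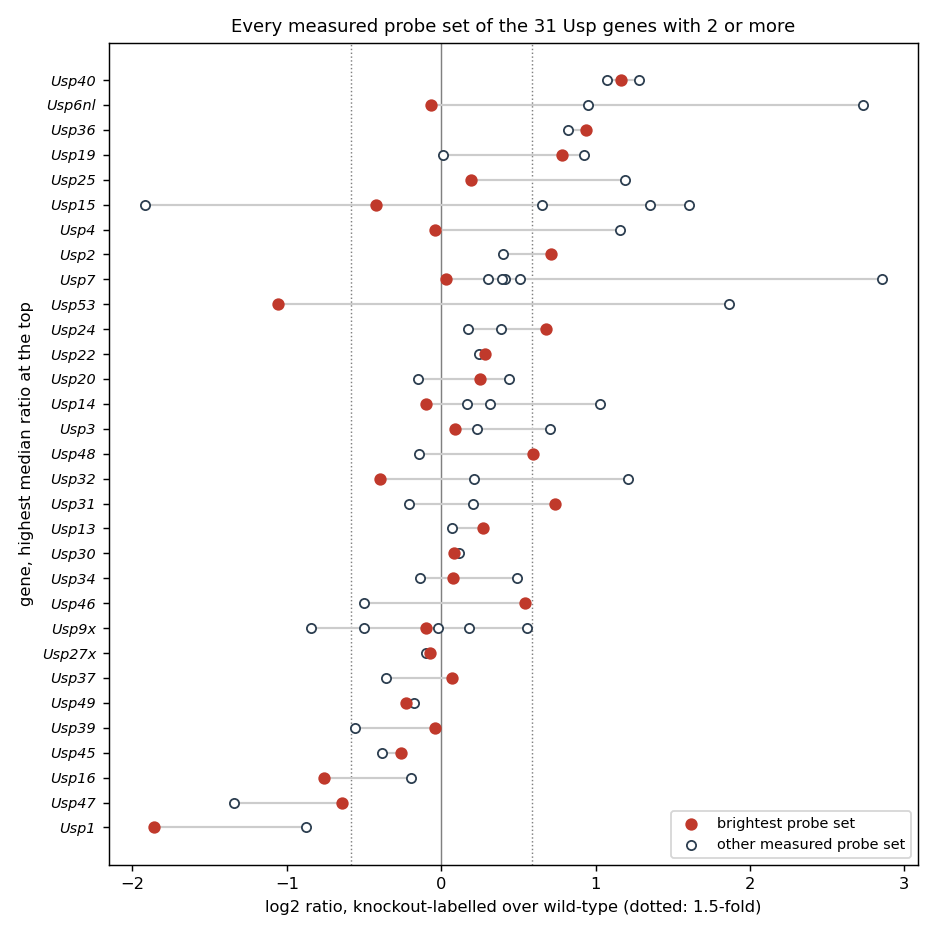
Log2 ratio, knockout-labelled over wild-type, for every measured probe set of the 31 Usp genes with 2 or more, with brightest probe sets filled and others open; dotted lines mark 1.5-fold. Usp40 and Usp36 lie wholly to the right and Usp1 and Usp47 wholly to the left of the dotted lines, while Usp15 and Usp53 span both.

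Probe sets of the same member often disagreed, to about the same extent as over all genes. Of the 31 Usp genes with several measured probe sets, 18 had all of them on 1 side of 0, or 58.1%, against 55.6% of all such genes. All were above 0 for 11 genes, against 26.9% of all such genes, and below 0 for 7, against 28.7%. All were at least 1.5-fold lower for 2, Usp1 and Usp47, against 6.64%. Usp15 and Usp53 had probe sets 1.5-fold apart in both directions, against 5.75% of all such genes. Usp1 and Usp40 had a brightest probe set more than 2 SD from 0, or 2.23-fold, with the SD over all genes. With the slightly larger SD over Usp genes this held for Usp1 alone. The share of all genes past this bound was not counted. At 2-fold, 3.47% of all genes were higher and 6.75% lower, so no distinction from other genes is read from it.

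Counted by probe set, Usp values leaned to the knockout-labelled side more than by gene. Of 97 measured Usp probe sets, 23 were higher by 1.5-fold or more, or 23.7% against 16.5% of all, and 10 were lower, or 10.3% against 18.1%. The probe sets other than the brightest of a gene carried most of this. Of these 53, 16 were higher, or 30.2% against 22.1% of all such probe sets, and 4 lower, or 7.55% against 18.0%. Their median ratio was 0.24 for Usp and 0.02 for all. Probe sets of the same gene can disagree, as above, but are not independent counts. Of the 16, 3 belong to Usp15 and 2 each to Usp40 and Usp6nl. Usp6nl had 578.2 units in the knockout-labelled pool and 86.2 units in the wild-type pool by its highest ratio, 6.65-fold, against a ratio of -0.07 by its brightest. Only the knockout-labelled signal reached the floor for 7 of 127 Usp probe sets, or 5.51% against 7.48% of all, and only the wild-type signal for 2, or 1.57% against 4.07%. The Malat1 probe sets given above were higher in the same pool, and their part, or any other, in this lean was not tested.

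**Figure D3:**
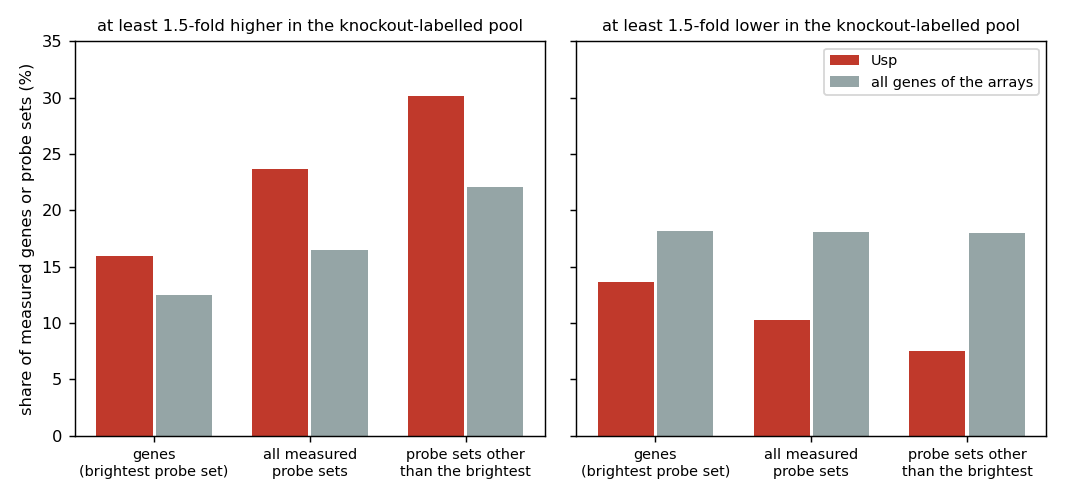
Share of measured genes or probe sets (percent) higher (left) and lower (right) in the knockout-labelled pool by 1.5-fold or more, for Usp and for all genes of the arrays. For probe sets other than the brightest, 30.2% of those of Usp and 22.1% of all were higher, and 7.55% and 18.0% were lower.

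The level of a signal and the length of a gene moved with the ratios over all genes. In probe sets with a mean signal under 200 units, 5 of 17 Usp probe sets were higher and 1 lower, against 20.7% and 16.5% of all. From 200 to 1000 units, 13 of 49 were higher and 7 lower, against 17.4% and 19.6%. From 1000 units, 5 of 31 were higher and 2 lower, against 11.5% and 17.3%. Usp genes were longer than most, with a median of 56.6 kb against 24.9 kb over all measured genes. With all measured genes cut by length into 4 equal groups, the 20 Usp genes in the longest group had a median ratio of 0.06, against 0.03 over all genes in it. In the next group the medians were -0.04 over 16 Usp genes and -0.02 over all genes. In the shorter groups they were 0.18 over 6 Usp genes and -0.08 over all genes, and in the shortest 0.09 over 2 Usp genes and -0.15 over all genes. The Spearman rank correlation of length and ratio was -0.06 over Usp genes and 0.11 over all genes. That of mean signal and ratio was 0.01 over Usp genes. The part of gene length in the Usp values was not tested.

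The other deubiquitinase families and the USP-fold genes outside the name rule also held genes that stood apart between the pools, in both directions. Of 32 measured genes in the other families and the USP-fold genes outside the name rule, 9 were higher by 1.5-fold or more, against 12.5% of all genes, and 7 lower, against 18.2%. Their median was -0.17, against -0.06 over all genes. In the OTU family, which cuts particular chain types, 4 of 14 were higher and 3 lower. Its extremes were Yod1, 3.21-fold higher, and Otud6b, 2.32-fold lower. Yod1 had 2003 units in the knockout-labelled pool and 618.1 in the wild-type pool by its brightest probe set, with its other at 0.49. In the UCH family 1 of 3 was lower and none higher. Uchl5, a proteasome-bound enzyme, was its lowest member at -0.83 and Bap1, the histone H2A deubiquitinase, its highest at -0.27. Of the 6 metalloproteases of the JAMM family, 1 was higher and 2 lower. Cops5, the catalytic subunit of the COP9 signalosome, was 3.01-fold lower, with 1081 units in the knockout-labelled pool and 3232 in the wild-type pool, and Mysm1, a histone H2A deubiquitinase, was highest at 0.79. Atxn3, the Josephin protease whose repeat expansion causes Machado-Joseph disease in humans, was 3.37-fold higher, with 619.6 units in the knockout-labelled pool and 182.3 in the wild-type pool, and Josd2 had -0.66. In the MINDY family 1 of 4 was higher. Mindy2 was 4.39-fold higher by its brightest probe set, with another at 0.00, and Mindy4 was lowest at -0.57. Of the USP-fold genes without the Usp name, Pan2, a subunit of a poly(A) nuclease, was highest at 1.43. Cyld, which removes linear and K63-linked chains, had 0.96, with its lowest probe set at -0.08, and Uspl1 had -0.20.

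**Figure D4:**
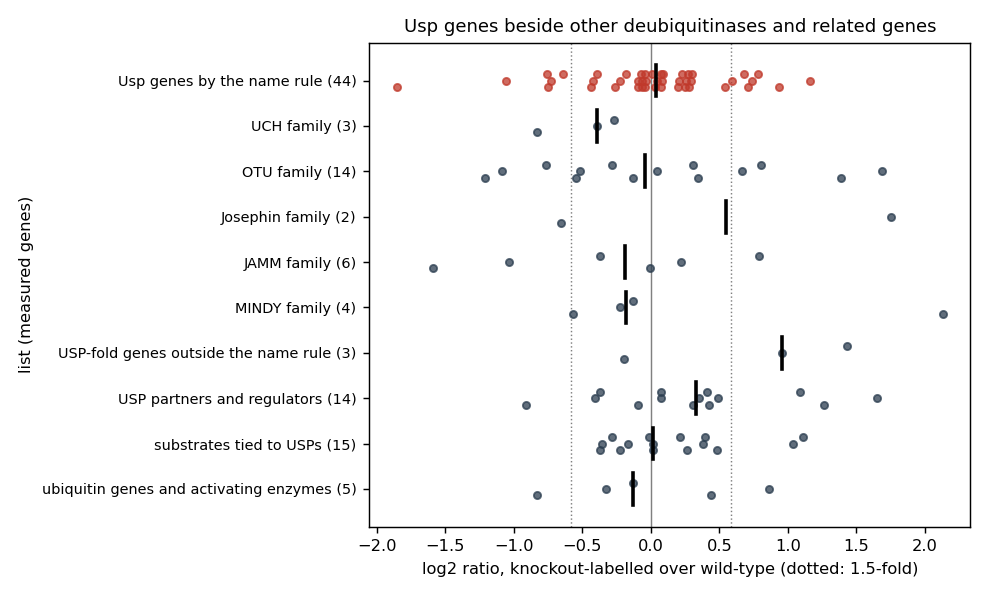
Log2 ratio, knockout-labelled over wild-type, by brightest probe set for Usp genes (top row) and for other deubiquitinase families, partners, substrates and ubiquitin genes, with measured genes in parentheses; black bars are medians and dotted lines mark 1.5-fold. The 44 Usp genes centre on 0.04, and 31 of them lie between the dotted lines.

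Among 14 measured partners and regulators of USPs, 3 were higher, against 12.5% of all genes, and 1, Wdr48, lower, against 18.2%, with a median of 0.33 against -0.06 over all genes. Eny2, a small subunit of the SAGA deubiquitinase module of Usp22, was highest at 1.65, but its 5 probe sets reached down to -0.48. Atxn7, which ties that module to SAGA, had 796.8 units in the knockout-labelled pool and 371.9 units in the wild-type pool and was 2.12-fold higher, with its other probe set at 1.33. Rnf41, a ubiquitin ligase that Usp8 stabilises, was 2.40-fold higher by its brightest probe set, with its lowest at 0.07. Of 15 measured substrates tied to USPs, 2 were higher and none lower, with a median of 0.02. Smad4 was 2.15-fold higher (3 probe sets from 0.82 to 1.31). Mdm4 was 2.05-fold higher, with its other measured probe set at 0.14. Fancd2, a substrate of Usp1, was lowest at -0.37, with its other measured probe set at 0.49. Of 14 ubiquitin, ubiquitin-like and activating enzyme genes, 5 were named on the arrays by single symbols. Uba7, the activating enzyme for ISG15, was highest at 0.86, with its other measured probe set at -0.45. Uba3, a subunit of the Nedd8-activating enzyme, was lowest at -0.83.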

How the data were processed

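Each pool was hybridised to 1 array. The labels' protocols name Trizol for extraction and 5 micrograms of total RNA as the input for biotinylated cRNA. The authors deposited linear intensities, 1 signal per probe set. The submitters' processing notes name GCOS, without a version or algorithm in the sources used here. Both deposited arrays had a mean of 500.0 units once 2% of values were trimmed at either end. Samples were grouped by title.

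The floor of 64.2 units was the 40th percentile over both arrays of 45037 non-control probe sets. The log2 ratio was centred by subtracting 0.01, its median over 23928 measured probe sets. Platform symbols were updated through gene identifiers for 34741 of 34945 single-symbol probe sets. Where 1 array was below the floor, the fold is a lower bound against the floor. With 1 array per group no p-value was calculated. The members and lists were chosen with earlier results of these data known. Genes were named by rule: those 1.5-fold apart, the 6 brightest, 7 preset members, those with concordant or opposed probe sets, and both ends of each list; other members complete their groups. Alternatives covered the floor, scaling, choice of probe set and suffixed probe sets. The calculations were tested on simulated data. The software was Python 3.11.15 with matplotlib 3.10.9, statsmodels 0.14.6, scipy 1.17.1, pandas 2.3.3 and numpy 2.4.6.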

Additional observations from a re-analysis of the deposited data

How the results depend on the processing

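The counts of Usp genes apart and the family median were recomputed under 9 alternatives, the counts of probe sets under 7, the number of measured genes under 4 and, added after the data were seen, without Usp6nl. By second brightest probe sets 2 of 31 Usp genes were at least 1.5-fold lower, against 19.1% of all genes. At the same setting 9 were higher, against 19.4% of all genes. By brightest probe sets 6 of 44 were lower and 7 higher, and fewer genes have a second probe set. The median ratio of 0.04 became -0.067 with no floor, 0.14 with quantile normalization and 0.21 with the median of measured probe sets. Over all genes the median of -0.06 became -0.14, -0.01 and -0.04 at these settings. With a floor at the 60th percentile 15 of 73 probe sets were higher, against 23 of 97. With no floor 20 of 127 were lower, against 10 of 97. The number of probe sets counted differs by construction, and shares over all probe sets were not recomputed at these settings. Of named genes, Usp48 turned to -0.14 by its second brightest probe set. Usp53 turned to 1.86 by its second brightest and to 0.40 by the median of measured probe sets. Inside 1.5-fold by brightest probe sets, Usp32 went from -0.39 to 1.21 by its second brightest and 0.21 by the median of measured probe sets, and Usp46 from 0.54 to -0.50 by its second brightest. For these 4 the cause was not tested. Usp1, Usp36 and Usp40 kept their direction past 1.5-fold under all 9. Usp48 did so under 4, Usp16, Usp24 and Usp47 under 6. Every measured probe set of Usp1, Usp36 and Usp40 was past 1.5-fold, so alternatives by other probe sets could not turn out otherwise. No paired analysis was possible because each group has 1 array. With no replicates, leaving one out was not possible, and signals near the floor carry the least precision.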
